A study of Mus musculus with 6 samples.

Results

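Intermediate filaments are the rope-like component of the cytoskeleton, built from proteins that differ between tissues. The 10 genes described here encode filament proteins of the cytoplasm: the keratins Krt7, Krt8, Krt18, Krt19, Krt23 and Krt80, and vimentin (Vim), desmin (Des), nestin (Nes) and alpha-internexin (Ina). They were chosen by gene symbol, with earlier results of these data known. Each of the 10 symbols matched 1 of the 55573 rows of the deposited table. RNA was sequenced from Hepa1-6 cells, a mouse liver cancer line, in 3 libraries of cells whose Matr3 gene was knocked out with CRISPR/Cas9 (KO) and 3 libraries of wild-type cells (WT). Matr3 encodes matrin 3, a nuclear matrix protein that binds RNA and DNA. All cells were grown in the same serum-containing medium with no further agent. The labels do not say whether the KO libraries came from 1 clone or several, or whether each library was a separate culture, so p-values cover no more than the variation among the libraries sequenced, part or all of which may be technical.

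Keratins form filaments only as pairs of an acidic type I chain and a basic type II chain. In simple epithelia the type II keratin 8 pairs with the type I keratins 18 and 19; hepatocytes are known for keratins 8 and 18, whereas bile duct cells and liver progenitors also make keratins 7 and 19. Vimentin, desmin, nestin and alpha-internexin need no keratin partner and are known from mesenchymal, muscle, progenitor and nerve cells.

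Library totals ranged from 23126778 to 30794032 counts in KO and from 20736570 to 27578804 in WT. Matr3 itself was at 76.0, 86.1 and 75.3 CPM (counts scaled to library size with TMM factors) in KO, against 129, 125 and 134 CPM in WT, so its mRNA fell and was still detected (log2 fold change -0.71, edgeR quasi-likelihood adjusted p = 0.00270). The sources used here do not give the edited site. KO library 2 and WT library 1 stood apart from the others of their group (chi-square per gene of 55.2 and 66.2 between KO library 2 and the other KO libraries, and of 23.4 and 27.8 between WT library 1 and the other WT libraries, against 3.44 and 6.22 for the remaining pairs). GC content correlated, across genes that are not independent replicates, with the deviation of each library from the mean of all 6: at 0.27 in KO libraries 1 and 3, at -0.27 in KO library 2 and between -0.17 and -0.03 in the WT libraries. The label of liver cells was checked against 8 hepatocyte markers: Ttr and Fgb had 0 counts in all 6 libraries, Alb, Apoa1, Apob, Hnf4a and Trf stayed under 1 CPM everywhere, and only Afp reached that level, so the summed markers were at 2.46 to 3.76 CPM in KO and 4.57 to 5.25 CPM in WT. The defining transcripts of hepatocytes were thus absent or nearly absent in both groups. Of 8 bile duct markers 6 had a mean of at least 1 CPM, led by Spp1 and Anxa4, with summed levels of 408 to 423 CPM in KO and 561 to 651 CPM in WT. Spp1 alone made that sum lower in KO, at 302 to 312 CPM against 476.5 to 558 CPM in WT (log2 fold change -0.75, edgeR adjusted p = 0.00251), and the other 7 markers together were higher, at 106, 111 and 111 CPM in KO against 84.3, 92.6 and 100.1 CPM in WT. In bulk samples, fewer cells of a type and less RNA per cell cannot be told apart.

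Of the 10 genes, 4 rose in KO (Krt19, Krt8, Des and Krt18), 1 fell (Ina), 3 did not pass the test (Vim, Nes and Krt80) and 2 (Krt7 and Krt23) were too low to test. These 5 calls (edgeR quasi-likelihood test, p adjusted by Benjamini-Hochberg over all 14842 genes tested, under 0.05) stand beside 15.2% of all tested genes called, 7.69% higher and 7.48% lower, against 5 of the 8 filament genes tested. Without KO library 2 and WT library 1 the same 5 were called, beside 51% of all genes tested there. Filament genes with no overlap between the KO and WT libraries numbered 6 of the 8 tested, beside 36.6% of all tested genes. The median log2 fold change (KO over WT) was 0.40 over the 8, against -0.02 over all tested genes. Because the 10 genes were chosen with earlier results of these data known, these shares and medians are description and no test of the group. Ina passed the filter on low counts only through the WT libraries, so its call and its lack of overlap are no support. At a mean of at least 1 CPM Ina was filtered out and 4 of the 10 genes were called.

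Promoter sequence was available for 8 of the 10 genes (all but Krt19 and Krt80), from RefSeq on the GRCm38.p6 build. Shown here are the 250 bases before the start site of the neighbouring genes Krt8 and Krt18, which both rose. Krt18 rose less and lost its call in several fits. The same window is shown for Krt7 and Krt23, which were silent, and for Ina, which was detected in WT only. Capitals mark matches, on either strand, to the E-box CAGGTG, the GC box GGGCGG or the AP-1 motif TGANTCA; no matches overlap.
Krt8 (chr15:102004343-102004592, minus strand): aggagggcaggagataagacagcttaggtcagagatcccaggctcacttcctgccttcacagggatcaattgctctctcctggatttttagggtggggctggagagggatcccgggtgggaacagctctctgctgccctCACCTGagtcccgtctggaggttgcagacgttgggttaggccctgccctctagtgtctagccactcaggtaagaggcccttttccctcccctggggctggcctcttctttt
Krt18 (chr15:102027966-102028215, plus strand): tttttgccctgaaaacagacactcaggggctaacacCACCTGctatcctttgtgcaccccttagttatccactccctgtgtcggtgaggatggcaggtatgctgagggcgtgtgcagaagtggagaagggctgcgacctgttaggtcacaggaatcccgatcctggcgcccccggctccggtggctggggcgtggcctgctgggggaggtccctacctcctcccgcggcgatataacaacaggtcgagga
Krt7 (chr15:101412153-101412402, plus strand): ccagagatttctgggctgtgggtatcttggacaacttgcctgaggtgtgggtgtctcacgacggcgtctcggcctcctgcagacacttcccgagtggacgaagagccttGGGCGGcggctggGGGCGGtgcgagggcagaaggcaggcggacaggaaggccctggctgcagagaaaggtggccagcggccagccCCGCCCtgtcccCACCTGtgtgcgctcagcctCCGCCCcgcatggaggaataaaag
Krt23 (chr11:99493121-99493370, minus strand): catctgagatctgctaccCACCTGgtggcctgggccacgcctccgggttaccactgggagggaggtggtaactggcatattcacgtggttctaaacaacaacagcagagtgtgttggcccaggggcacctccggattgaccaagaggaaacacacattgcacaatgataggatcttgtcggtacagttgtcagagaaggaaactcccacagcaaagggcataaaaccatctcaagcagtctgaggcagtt
Ina (chr19:47014431-47014680, plus strand): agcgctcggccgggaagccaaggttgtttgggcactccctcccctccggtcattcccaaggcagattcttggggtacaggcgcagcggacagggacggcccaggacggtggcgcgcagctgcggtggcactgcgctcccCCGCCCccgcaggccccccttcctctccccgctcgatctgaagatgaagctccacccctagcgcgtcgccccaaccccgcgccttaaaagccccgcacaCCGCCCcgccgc
All 4 keratin promoters held 1 E-box match, read here as CACCTG: 111 to 106 bases before the start in Krt8, 214 to 209 in Krt18, 44 to 39 in Krt7 and 232 to 227 in Krt23. The windows of Vim, Des, Nes and Ina held none. Among all 32851 RefSeq promoter windows of this length, 17.2% held this E-box. GC boxes were found in Krt7, Des, Nes and Ina, as in 32.7% of all windows, and AP-1 matches in none of the 8, against 6.75% of all windows. Krt8 and Krt18, which rose, and Krt7 and Krt23, which were silent, thus each carried 1 match.

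**Figure D1:**
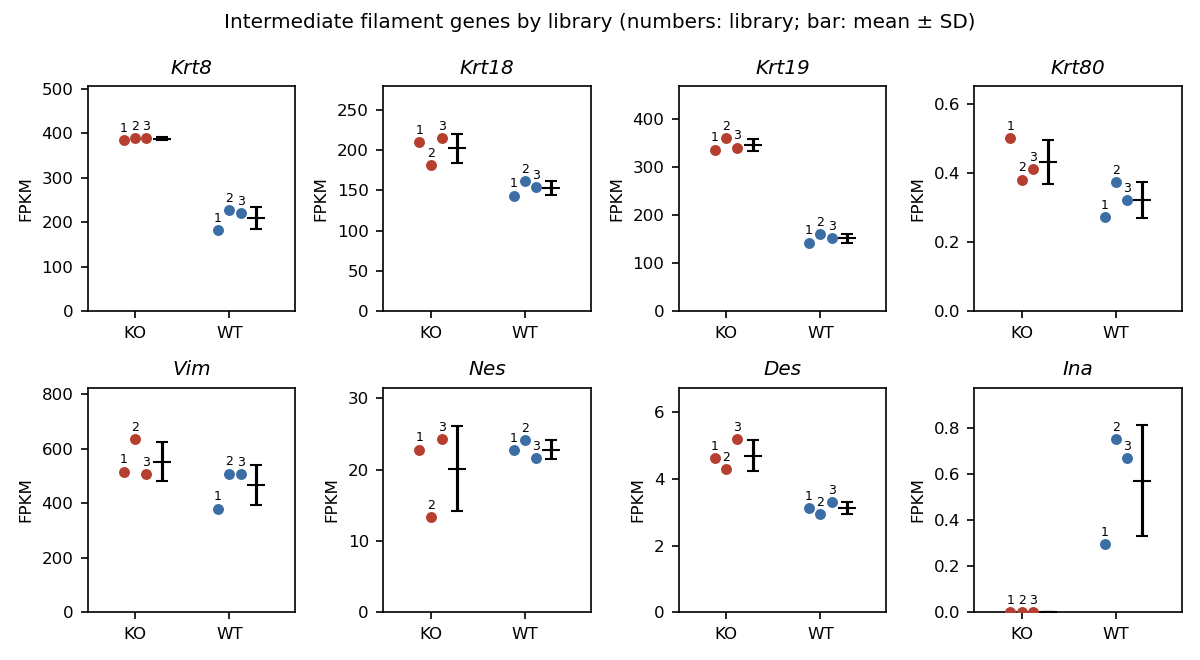
Levels of the 8 tested filament genes as FPKM (vertical axis, from 0, one scale per gene) in the 3 KO and 3 WT libraries; numbers give the library and black bars the mean ± SD. Krt8, Krt18, Krt19, Krt80 and Des were higher in every KO library than in any WT library, Ina was at 0 in all KO libraries, and Vim and Nes overlapped.

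Krt8, the type II keratin of simple epithelia (ENSMUSG00000049382, chromosome 15, 101905133 to 101912917, minus strand, as the deposited table gives positions, on a build that could not be settled), was at 384, 389.7 and 389.7 FPKM (the deposited level, scaled for gene length and library size) in KO libraries 1 to 3, against 181, 228 and 219.5 FPKM in the WT libraries. The KO values lay close together, the WT values spread wider with WT library 1 lowest, and the groups did not overlap. Krt8 rose 1.84-fold (log2 fold change 0.88, SE 0.102, edgeR adjusted p = 0.00200). A processed pseudogene, Krt8-ps on chromosome 7, rose as well (log2 fold change 1.01, edgeR adjusted p = 0.0123), and it held 9.50%, 6.03% and 9.52% of the summed Krt8 and Krt8-ps counts in KO, against 7.67%, 7.89% and 7.57% in WT. The sources used here do not say how the counting divided reads between the gene and its pseudogene, and their sequences were not compared here, so the Krt8 value is uncertain to that extent.

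Krt19, a type I keratin without a tail domain that is known from bile duct and progenitor cells (ENSMUSG00000020911, chromosome 11, 100031636 to 100039491, minus strand), was at 335, 360.0 and 339.7 FPKM in KO, against 142, 159 and 151 FPKM in WT. The groups stood far apart, with little spread within either. Krt19 rose 2.27-fold, the largest rise of the 10 genes (log2 fold change 1.18, SE 0.0866, edgeR adjusted p = 0.000254). Krt18, the type I partner of keratin 8 in hepatocytes (ENSMUSG00000023043, chromosome 15, 101936615 to 101940462, plus strand), was at 209.9, 181 and 215 FPKM in KO, against 143, 162 and 154 FPKM in WT. The groups did not overlap, but KO library 2 lay closest to the WT libraries. Krt18 rose 1.31-fold (log2 fold change 0.39, SE 0.0997, edgeR adjusted p = 0.0338). Its call ended without KO library 1 or 3 or without any 1 of the WT libraries (edgeR adjusted p from 0.0611 to 0.138 in these 5 fits), whereas Krt8 and Krt19 passed in each of 6 fits that left out 1 library (highest edgeR adjusted p = 0.0148 for Krt8 and 0.00406 for Krt19).

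The 3 remaining keratins were low or silent. Krt80, a type II keratin of several epithelia, had 75, 76 and 75 counts in KO, against 38, 64 and 54 in WT. Its levels, 0.503, 0.382 and 0.413 FPKM in KO and 0.272, 0.374 and 0.321 FPKM in WT, did not overlap, and the difference did not pass (log2 fold change 0.41, SE 0.240, edgeR adjusted p = 0.290). Krt7, the type II keratin of bile ducts, and Krt23, a type I keratin, each had 0 counts in the 3 KO libraries and 1 count in the WT libraries, in WT library 1. A count of 0 in KO allows up to 0.0362 CPM (3 counts over the 3 libraries, counting error only), and no fold is given. Krt7 thus had at most 1 count in any library, while Krt19 and the gene of its type II partner, Krt8, were well detected.

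Krt18 and Krt19, the expressed type I chains among the 10 genes, were then compared within each library. In WT, Krt18 and Krt19 could not be ordered, with means of 153 ± 9.18 and 151 ± 8.56 FPKM (SD, n = 3 each) and overlapping ranges; in KO they were at 202 ± 18.2 and 345 ± 13.2 FPKM and did not overlap. The ratio of Krt19 to Krt18 was 1.597, 1.99 and 1.58 in KO, against 0.992, 0.985 and 0.981 in WT. Of the FPKM summed over Krt18, Krt19 and Krt23, Krt18 made up 38.5%, 33.5% and 38.8% in KO, against 50.2%, 50.4% and 50.5% in WT. Both sets stood apart, and the WT libraries hardly varied. The ratio of these type I genes to the type II genes Krt7, Krt8 and Krt80, in contrast, was 1.42, 1.39 and 1.42 in KO and 1.57, 1.41 and 1.39 in WT, and the groups overlapped. Summed over these 6 keratins, levels were 930.1, 931 and 945 FPKM in KO, against 467, 549 and 525 FPKM in WT. Other keratins, such as Krt13 (12.2 ± 0.849 FPKM in KO and 17.7 ± 2.47 FPKM in WT) and Krt76 (3.92 ± 0.867 FPKM in KO and 10.6 ± 0.705 FPKM in WT; SD, n = 3 each), are outside these sums.

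**Figure D2:**
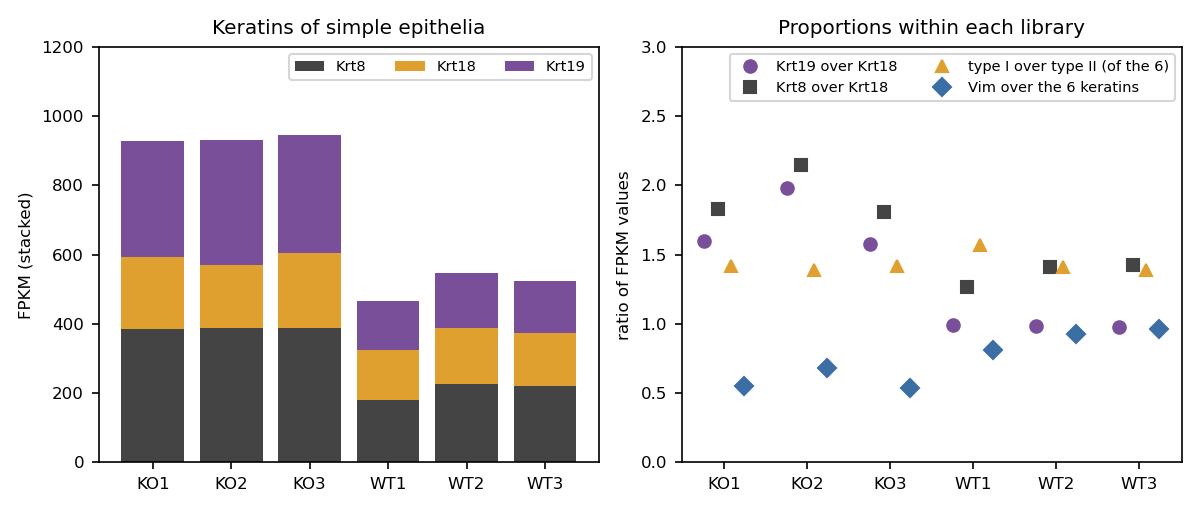
Left, FPKM of Krt8, Krt18 and Krt19 stacked for each library; right, ratios of FPKM values within each library (Krt19 over Krt18, Krt8 over Krt18, type I over type II and Vim over the sum, both for the 6 keratins among the 10 genes). The 6 keratins together stood at 930.1 to 945 FPKM in KO and 467 to 549 FPKM in WT, and the ratio of Krt19 to Krt18 was 1.58 to 1.99 in KO and 0.981 to 0.992 in WT.

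Vim, the vimentin gene of mesenchymal cells and of many cultured lines (ENSMUSG00000026728, chromosome 2, 13578738 to 13587637, plus strand), was the highest of the 10 genes in both groups. It was at 515.5, 633.5 and 506 FPKM in KO, against 380.3, 508 and 507 FPKM in WT. KO library 2 was the highest and WT library 1 the lowest, while KO libraries 1 and 3 and WT libraries 2 and 3 lay close together. Vim did not pass (log2 fold change 0.24, SE 0.140, edgeR adjusted p = 0.295), and without KO library 2 and WT library 1 its log2 fold change was 0.01. The 8 fibroblast markers summed to 532 to 644 CPM in KO and 588 to 690 CPM in WT. Col3a1 held most of that sum, at 606, 511 and 616 CPM in KO against 571.5, 670 and 665 CPM in WT. Thy1 had 0 counts, and Col1a2, Dcn and Lum stayed under 1 CPM everywhere. The part of these markers in the Vim level was not tested. Vim FPKM over the summed FPKM of the 6 keratins was 0.554, 0.680 and 0.536 in KO, against 0.814, 0.927 and 0.966 in WT, with no overlap. In both groups the level order was Vim, then Krt8, with Nes, Des and the remaining genes below the 3 simple keratins.

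Nes encodes nestin, a filament protein of progenitor cells that assembles with vimentin (ENSMUSG00000004891, chromosome 3, 87878385 to 87887758, plus strand). It was at 22.8, 13.3 and 24.3 FPKM in KO, against 22.7, 24.2 and 21.6 FPKM in WT. KO library 2 alone was low. Nes did not pass (log2 fold change -0.19, SE 0.204, edgeR adjusted p = 0.562), and the sign turned without KO library 2 (log2 fold change 0.04).

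Des, which encodes the muscle filament protein desmin and is also known from hepatic stellate cells (ENSMUSG00000026208, chromosome 1, 75336973 to 75345223, plus strand), was at 4.62, 4.28 and 5.18 FPKM in KO, against 3.13, 2.94 and 3.30 FPKM in WT. The groups did not overlap. Des rose 1.49-fold (log2 fold change 0.58, SE 0.121, edgeR adjusted p = 0.0170), and its call ended without KO library 1 or 3 or WT library 2 or 3 (edgeR adjusted p from 0.0562 to 0.0766). Of 8 markers of smooth muscle and stellate cells, Lrat had 0 counts in all libraries and Acta2, Myh11, Tagln, Cnn1, Reln and Rgs5 stayed under 1 CPM everywhere; the 8 together were at 1.58 to 2.01 CPM in KO and 3.36 to 4.75 CPM in WT. Of 5 skeletal muscle markers, Myod1 and Myog had 0 counts, and the sum was 1.55 to 1.94 CPM in KO and 1.67 to 3.78 CPM in WT. The part of these markers in the Des level was not tested.

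Ina, the gene of the neuronal filament protein alpha-internexin (ENSMUSG00000034336, chromosome 19, 47003137 to 47013766, plus strand), had 0 counts in each KO library, against 21, 65 and 57 counts in the WT libraries (0.297, 0.750 and 0.669 FPKM). Set against the floor of 3 counts over the KO libraries, it was at least 53.2-fold lower in KO. It entered the test only through the WT libraries, so its edgeR adjusted p (0.00356) is no further support. The authors' deposited table gives a log2 fold change of -1.72 for Ina, beside scaled means of 0 in KO and 48.3 in WT. The gene overlaps Nt5c2 on the opposite strand, which was at 35.5 CPM in KO and 30.9 CPM in WT, and strandedness is not stated. Of 6 neural markers, Elavl4 had 0 counts and Syp and Stmn2 stayed under 1 CPM, and the sum was 40.1 to 41.5 CPM in KO and 29.4 to 36.7 CPM in WT, and their part in the Ina level was not tested. The remaining neuronal filament genes are given with the other classes.

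The 8 tested filament genes are GC-rich, with annotated transcripts of 52.3% GC for Vim up to 57.1% for Krt8, against a median of 49.9% over tested genes. With the trend of each library with GC content and length removed, the log2 fold changes were 1.11 for Krt19, 0.80 for Krt8, 0.50 for Des and 0.31 for Krt18, and each was still called (edgeR adjusted p = 0.00123, 0.00555, 0.0132 and 0.0305). In the authors' deposited table the log2 fold change is 1.15 for Krt19, 0.85 for Krt8, 0.53 for Des and 0.38 for Krt18, each with a deposited adjusted p under 0.05, and 0.23 for Vim, 0.30 for Krt80 and -0.16 for Nes, with deposited adjusted p of 0.273, 0.453 and 0.585.

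**Figure D3:**
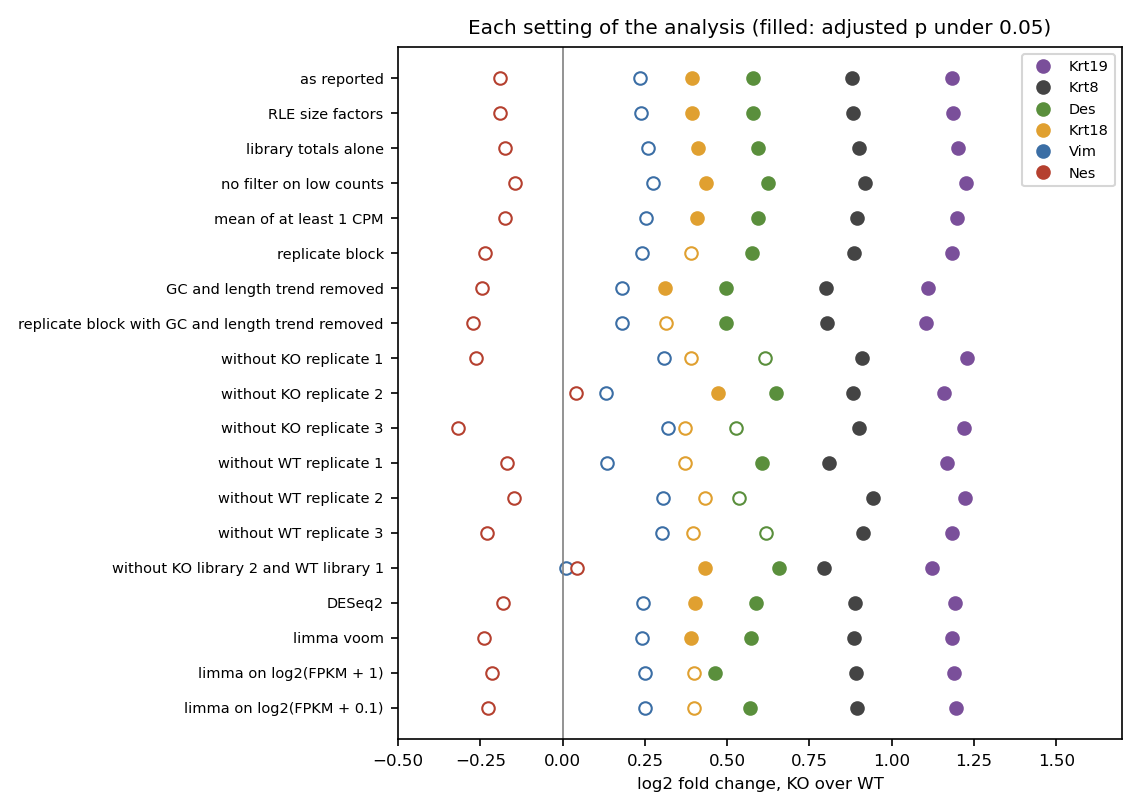
Log2 fold change, KO over WT (horizontal axis), of 6 filament genes under each setting of the analysis (rows); filled points passed an adjusted p under 0.05. Krt19 stayed between 1.10 and 1.23 and Krt8 between 0.79 and 0.94, Krt18 and Des lost their calls in some rows, and Nes crossed 0 where KO library 2 was left out.

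Most of the other keratins were silent or too low to test. Of 44 keratin genes outside the 10, 22 had 0 counts in all libraries and 9 could be tested. Of these 0 rose, 3 fell and 6 did not pass, beside 7.69% of all tested genes called higher and 7.48% lower. With 9 genes, 0 called higher is near the share of all tested genes, and the untested keratins were not compared. The median log2 fold change of the 9 was -0.55. By edgeR, none of the 9 was higher even at an unadjusted p under 0.05, and DESeq2 and limma voom called 0 higher and 2 lower. Krt76, a type II keratin of oral epithelium, was at 9.65, 6.80 and 10.7 CPM in KO, against 26.6, 24.7 and 22.8 CPM in WT. The groups stood well apart (log2 fold change -1.45, SE 0.173, edgeR adjusted p = 0.00229), and the call held in each fit without 1 library. Krt13, a type I keratin of oral and oesophageal epithelium, was at 20.5, 23.2 and 22.8 CPM in KO, against 27.8, 33.6 and 36.0 CPM in WT, also without overlap (log2 fold change -0.55, edgeR adjusted p = 0.0205; call lost without KO library 1 or 3 or WT library 2 or 3, with edgeR adjusted p up to 0.112). Krt20, a type I keratin of gut and bladder lining, was near the detection limit at 0.377 ± 0.0913 CPM in KO and 1.203 ± 0.576 CPM in WT (SD, n = 3 each). Its log2 fold change was -1.65 (edgeR adjusted p = 0.0492), and the call held only in the fit without KO library 2 among the 6 that left out 1 library; DESeq2 and limma voom did not call it (adjusted p = 0.0537 and 0.0807). Krt15 did not pass (-0.68, edgeR adjusted p = 0.173).

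Neighbouring genes were compared next. Krt8 and Krt18 are 23.7 kb apart, on opposite strands. Within 100 kb of Krt18, 5 genes were tested and 1, Krt8, was called. The rest did not pass, and are named after their values were seen. Log2 fold changes were 0.09 for the translation factor gene Eif4b and 0.12 for the focal adhesion gene Tns2. They were 0.39 for Spryd3 and 0.42 for the noncoding Gm36026, near the 0.39 of Krt18 (edgeR adjusted p = 0.118 and 0.384). Within 100 kb of Krt19, in the type I keratin cluster, 4 genes were tested, 0 were called higher and 1, Krt13, lower. Krt13 lies 19.2 kb from Krt19 and went the opposite way.

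**Figure D4:**
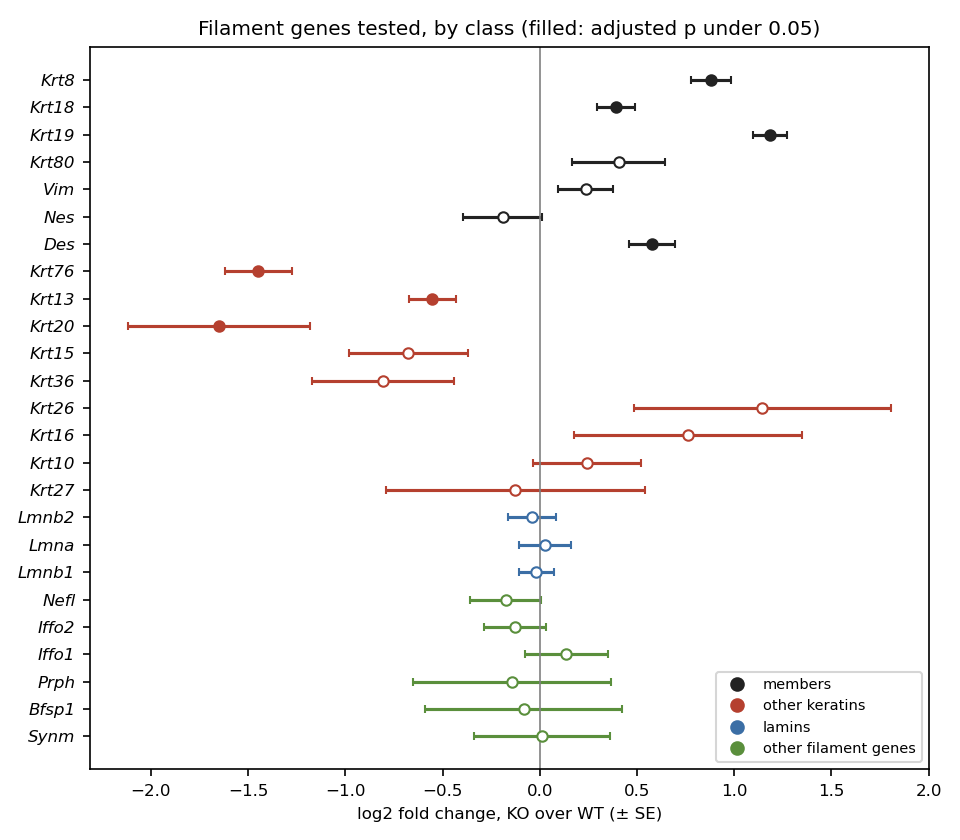
Log2 fold change, KO over WT, with its SE (horizontal axis) for 7 of the 10 genes and for the tested genes of 3 further filament classes; filled points passed an adjusted p under 0.05. Ina is not drawn because it was at 0 counts in KO. Krt8, Krt18, Krt19 and Des are filled to the right of 0, Krt76, Krt13 and Krt20 to the left, and no lamin or other filament gene is filled.

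None of the 3 lamins, the filament proteins of the nuclear envelope, passed the test, beside 15.2% of all tested genes called. Lmna was at 1143 ± 190.5 CPM in KO and 1121 ± 65.7 CPM in WT, Lmnb1 at 301 ± 20.1 CPM in KO and 305 ± 8.88 CPM in WT, and Lmnb2 at 62.8 ± 10.3 CPM in KO and 64.5 ± 2.48 CPM in WT (SD, n = 3 each), with log2 fold changes between -0.04 and 0.03. By edgeR, none of the 3 had an unadjusted p under 0.05, and DESeq2 and limma voom called 0. Without KO library 2 and WT library 1, Lmna was called, as were 51% of all genes tested there. Among 10 other filament genes 6 were tested and 0 passed, beside the same 15.2% of all tested genes. By edgeR 0 had an unadjusted p under 0.05, and DESeq2 and limma voom called 0. Nefl, the light neurofilament chain, was at 23.1 ± 0.349 CPM in KO and 26.0 ± 6.77 CPM in WT (log2 fold change -0.18), the filament family genes Iffo2 and Iffo1 had log2 fold changes of -0.13 and 0.14, and Prph, which encodes the peripheral nerve filament peripherin, -0.14. Nefl, unlike Ina, was thus present in every library of both groups.

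Proteins that tie filaments to junctions and to the nucleus were followed next. Of 7 plakins, the cytolinkers that hold filaments, 6 were tested. By edgeR 1 rose and 0 fell (median log2 fold change 0.02), beside a similar share, 15.2%, of all tested genes called. By edgeR 0 were lower at an unadjusted p under 0.05, and DESeq2 called 2 higher and 0 lower. Limma voom called 1 higher and 0 lower, with 1 lower at an unadjusted p under 0.05. Dsp, which encodes desmoplakin, the plakin that anchors keratins to desmosomes, was at 55.7, 54.5 and 51.7 CPM in KO, against 14.8, 17.6 and 16.6 CPM in WT. The groups stood far apart (log2 fold change 1.72, SE 0.09996, edgeR adjusted p = 0.000122). Ppl, the periplakin gene, did not pass (0.39, edgeR adjusted p = 0.0565) but was called by DESeq2, with no filter on low counts and at a mean of at least 1 CPM. Macf1 (-0.19) and Plec, the plectin gene (0.12), did not pass. For Ppl and Macf1 the KO and WT libraries did not overlap, with Ppl higher and Macf1 lower in KO.

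Of 11 nuclear envelope partners 2 rose and 0 fell (median 0.16), beside a similar share, 15.2%, of all tested genes called. By edgeR 0 were lower at an unadjusted p under 0.05. DESeq2 and limma voom also called 2 higher and 0 lower. Syne3, which encodes nesprin-3, the envelope protein that binds plectin and so connects filaments to the nucleus, was at 105, 94.3 and 112 CPM in KO, against 73.6, 84.7 and 72.9 CPM in WT (log2 fold change 0.43, SE 0.102, edgeR adjusted p = 0.0280). The groups did not overlap, but the call held only without KO library 2 among the 6 fits that left out 1 library. Syne2, which encodes the large nesprin that binds actin, rose by a log2 fold change of 0.43 (edgeR adjusted p = 0.0149; lost without KO library 3 or WT library 2 or 3). Banf1 (0.27) and Sun1 (0.25) did not pass.

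Of 18 chaperones and turnover factors 17 were tested. Of these 2 rose, 3 fell and 12 did not pass (median -0.13), beside 15.2% of all tested genes called. Cryab, the small heat shock protein that binds desmin, was at 3.95 ± 0.813 CPM in KO and 1.88 ± 0.250 CPM in WT (SD, n = 3 each; log2 fold change 1.06, edgeR adjusted p = 0.0228). Stub1, a chaperone-linked ubiquitin ligase, rose by 0.38 (edgeR adjusted p = 0.0325). Klhl24, which targets keratins in human skin cells, fell by 0.43 (edgeR adjusted p = 0.0360). Dnajb6, a co-chaperone that binds keratin 18, also fell (log2 fold change -0.32, edgeR adjusted p = 0.0481, named after its value was seen). Each of these 4 calls ended without KO library 1 or 3 or WT library 2 or 3, and those of Stub1, Klhl24 and Dnajb6 also without WT library 1 (highest edgeR adjusted p = 0.211, for Dnajb6). With the GC and length trend removed, Stub1, Klhl24 and Dnajb6 were not called (edgeR adjusted p = 0.170, 0.0553 and 0.0672), and DESeq2 did not call Klhl24 and Dnajb6 (adjusted p = 0.0642 and 0.0751).

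**Figure D5:**
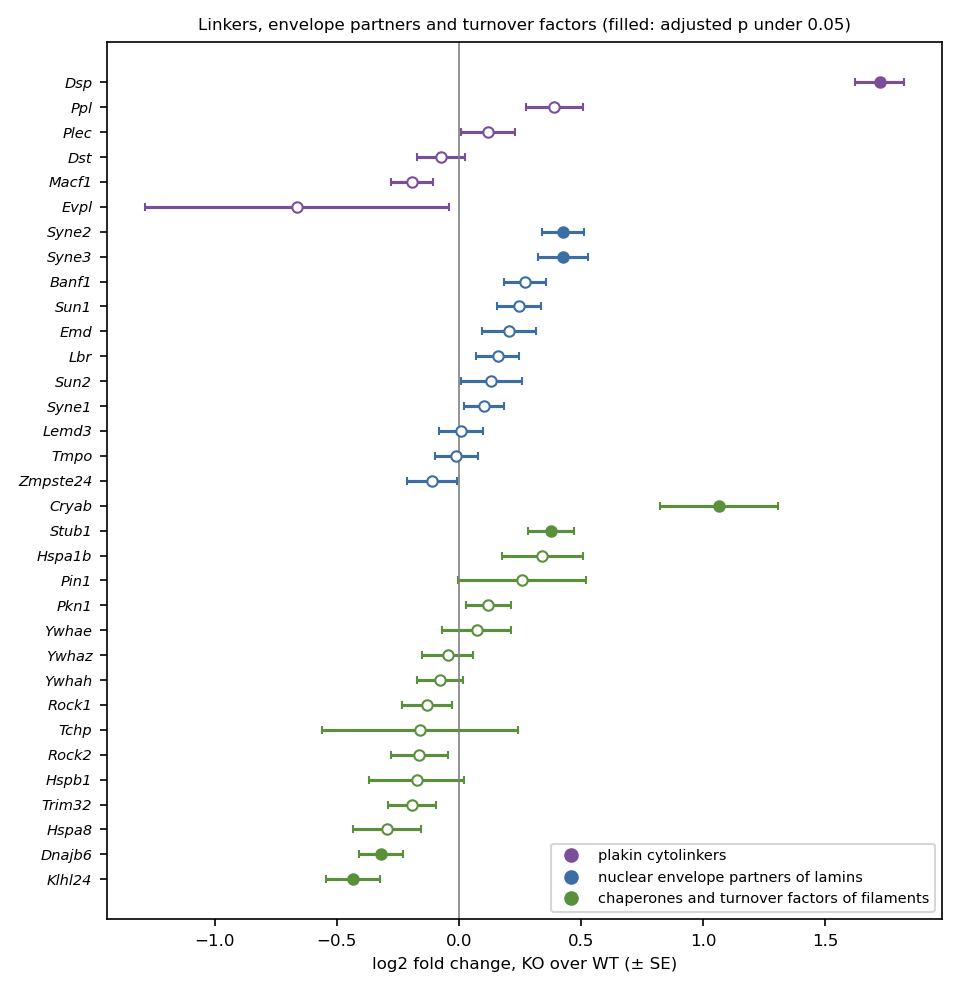
Log2 fold change, KO over WT, with its SE (horizontal axis) for plakin cytolinkers, nuclear envelope partners and chaperones or turnover factors (16 of the 17 tested), sorted within each class; filled points passed an adjusted p under 0.05. Dsp stands at 1.72, above the other plakins, and the envelope and turnover classes lie mostly within 0.5 of 0.

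Keratins and vimentin are read as epithelial and mesenchymal markers, so both gene programmes were counted. Of 12 genes of simple epithelia only 4 could be tested and 1 rose, beside 7.69% of all tested genes called higher. It was Elf3, an epithelial ETS factor, at 48.2, 42.1 and 48.8 CPM in KO against 21.1, 23.8 and 21.9 CPM in WT. The log2 fold change of Elf3 was 1.06 (edgeR adjusted p = 0.000956). None fell, with 0 lower by edgeR at an unadjusted p under 0.05 and 0 called lower by DESeq2. Epcam (0.45), Grhl2 (0.15) and St14 (0.00454) did not pass. Cdh1, the E-cadherin gene, had 15 counts over the 3 KO libraries and 5 over the 3 WT libraries, too few to test. Other untested genes also had too few counts to give a direction. Cldn7 had 6 counts in KO and 15 in WT, and Rab25 4 and 10. Cldn3 had 0 and 4, and Cldn4 1 and 3. Esrp2 had 5 in each group, and Esrp1 and Ovol1 had 0 in all libraries. Of 14 tested mesenchymal genes 3 rose and 3 fell (median -0.11), beside 7.69% of all tested genes called higher and 7.48% lower. Snai2, an E-box-binding repressor, was at 20.6, 23.8 and 21.3 CPM in KO, against 10.9, 10.9 and 11.2 CPM in WT (log2 fold change 1.00, edgeR adjusted p = 0.00147), whereas Zeb2, another E-box-binding repressor, was at 27.6, 32.3 and 28.9 CPM in KO, against 51.5, 55.2 and 51.9 CPM in WT (-0.84, edgeR adjusted p = 0.00173). Fn1, the fibronectin gene, fell by 0.86 (edgeR adjusted p = 0.00173) and Pdgfrb by 1.39 (edgeR adjusted p = 0.0153; lost without KO library 1 or 3 or WT library 2 or 3). Col1a1, a collagen gene, and S100a4, a calcium-binding protein gene, named after their values were seen, rose by log2 fold changes of 0.81 and 2.05 (edgeR adjusted p = 0.0198 and 0.0398), and among the 6 fits that left out 1 library both calls held only without KO library 2. S100a4 was not called by limma voom (adjusted p = 0.215) or by limma on log2(FPKM + 1). The mesenchymal list moved both ways while Vim did not pass.

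The genes whose profiles over the 6 libraries came closest to each called filament gene were ranked by the root-mean-square difference of centred log2(CPM + 0.5) values among 9747 protein-coding genes whose mean reached 5 CPM. Closest to Krt8 were Rab32, a small GTPase gene of organelle traffic (0.0380), and the mitochondrial carbonic anhydrase gene Car5b (0.0420). Closest to Krt19 were the torsin gene Tor3a (0.0391) and the glutathione transferase gene Gsta4 (0.0496); closest to Krt18, Agpat4 (0.0214) and Mtss2 (0.0240); and closest to Des, Mrm1 (0.0394) and Id3 (0.0577). Closest to Ina, at larger differences, were Sulf2 (0.195) and Cdkn1c (0.208), with log2 fold changes of -2.38 and -2.37. The 0.5 added to CPM limits the fall of Ina, at 0 counts in KO, so these matches depend on it. In these orders, with the other tested filament genes included, Krt8 was 49th from Krt19 and Krt19 was 184th from Krt8, whereas Krt18 was 748th from Krt8 and 925th from Krt19, behind Des at 394th and 441st. From Krt18, Krt8 was 5050th and Krt19 8426th of 9754. The profile of Krt8 differed from that of Krt18 by 0.266 and from that of Krt19 by 0.162. Profiles were centred but not scaled, so the ranks depend on the size of a change as well as on its pattern. The same difference of 0.266 placed Krt18 748th from Krt8 and Krt8 5050th from Krt18.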

How the data were processed

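RNA of 6 Hepa1-6 libraries was sequenced from SMARTer mRNA-seq preparations, per the labels' protocols. The table deposited by the authors holds raw counts and FPKM values per gene and library, per the file headers. It also holds the authors' scaled group means (a signal averaged per group), their log2 fold change, and their p-values and adjusted p-values. The submitters' processing notes name GRCm38 and mm10; aligner, counter, annotation release and strandedness are named by none of the sources used here. Gene coordinates are printed as the table gives them, and since none of the 10 genes' coordinates matched a GRCm38 annotation, their build is not settled.

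Counts were tested with edgeR 4.0.16 (R 4.3.3) on all 6 libraries: TMM scaling, filterByExpr, quasi-likelihood F test and Benjamini-Hochberg adjustment over the 14842 genes kept. FPKM values are used for levels between genes. Alternatives used DESeq2 1.42.0, limma 3.58.1 (voom, and log2(FPKM + 1) or log2(FPKM + 0.1)), other scalings and filters, a replicate block, removal of each library's trend with GC content and length (mgcv 1.9.3), and left-out libraries; fits were tested on simulated data. Every pair of libraries differed by more than counting noise, so all 6 were kept as separate samples. The members, gene lists and marker lists were chosen with earlier results of these data known. Named from each list were the 4 tested genes with the lowest p, and for likeness the 2 closest genes; a gene outside this rule is said to be so. 1 gene of the turnover list is counted but not reported here. Floors of 3 counts cover counting error only.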

Additional observations from a re-analysis of the deposited data

How the results depend on the processing

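Krt8 and Krt19 kept their direction and their call under all 18 alternatives (log2 fold change 0.79 to 0.94 and 1.10 to 1.23), and Ina under the 17 that could be fitted, since it was filtered out at a mean of 1 CPM. For Krt18 the call was lost by limma on log2(FPKM + 1) and on log2(FPKM + 0.1) (0.40 in both, adjusted p = 0.0541), and the log2 fold change ran from 0.37 to 0.47 over the fits leaving out 1 library. Over those 6 fits Des ran from 0.53 to 0.65. Nes turned positive without KO library 2 (0.0418), and without KO library 2 and WT library 1 (0.0430); over the 6 fits it ran from -0.32 to 0.0418. The causes were not tested.

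Replicate numbers did not pair the libraries: deviations of same-numbered KO and WT libraries correlated at 0.17, -0.03 and -0.20 across genes. With the replicate number as a block, 1599 genes were called; Krt18 was not (0.39, adjusted p = 0.0787), nor with the block and the GC and length trend removed (0.31, adjusted p = 0.0577), and the other called filament genes were.

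Counts depended on the libraries. Of all genes, 2252 were called; 7556 were called without KO library 2 and WT library 1 (3750 higher, 3806 lower), 2249 of the 2252 among them, and 721 at an adjusted p under 0.01 (347 higher, 374 lower). Leaving out 1 library gave 807 to 4295 calls (393 to 2286 higher, 377 to 2009 lower). Called filament genes numbered 3 at an adjusted p under 0.01 and 3 to 5 with 1 library left out. Without KO library 2 and WT library 1, 51% of all genes tested were called. In that fit 1 of 3 tested lamins, 2 of 6 other filament genes and 4 of 6 plakins were called. So were 7 of 11 envelope partners, 13 of 17 chaperones or turnover factors and 11 of 14 mesenchymal genes. Among other keratins 3 of 8 were called, and among simple epithelium genes 1 of 4. With no filter on low counts 2 plakins and 2 chaperones or turnover factors were called, and at a mean of at least 1 CPM 2 plakins. Depth limits Krt7, Krt23 and Krt80, which had few counts.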
